A study of Mus musculus with 2 samples.

Results

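The subunit genes of the nuclear RNA polymerases and of Mediator were described in cultures labelled as mouse neonatal cardiomyocytes. Members were the genes of the deposited table whose symbol begins with Polr1, Polr2 or Polr3 followed by a letter, or with Med followed by a digit. There were 57 of them among 10982 genes: 5 named for polymerase I, 13 for polymerase II, 10 for polymerase III and 29 for Mediator. The comparison asked how expression differed after knockdown of the piRNA FERPIR, a short RNA of the class bound by PIWI proteins. There was 1 library from cells transfected with an antagomir against FERPIR, a chemically modified antisense oligonucleotide, and 1 library from cells transfected with a negative control. No strain, genotype or number of animals is given for either, and both carry a treatment label that reads PBS. Neither group has a replicate here, so no test, p-value or replicate error can be given, and every value describes these 2 libraries only.

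Polymerase I transcribes the large ribosomal RNA precursor, polymerase II transcribes messenger RNA and many small nuclear RNAs, and polymerase III transcribes transfer RNAs, 5S ribosomal RNA and other short RNAs. Each is built around a pair of very large subunits that form the active site, with smaller subunits arranged around them, several of which are common to more than 1 polymerase. Mediator is a large complex that carries signals from transcription factors to polymerase II, through a head and a middle part that meet the polymerase, a tail that activators bind, and a detachable kinase part. In the heart, loss of Med1 or a mutation of Med30 causes cardiomyopathy in mice, and Med13 is known as a target of a cardiac microRNA in mice.

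Levels were deposited in FPKM, a unit that divides fragments by transcript length and by library size, so they can be set side by side between genes. They summed to 312806 FPKM in the antagomir library and 295404 FPKM in the control library. How many reads this rests on is unknown. The log2 ratio used throughout is log2 of (antagomir FPKM + 1) over (control FPKM + 1), so a positive value means higher in the antagomir library, folds are on the same scale, and differences of low genes are understated. A member was called higher or lower when it was at least 1.5-fold apart. All 57 members reached 1 FPKM in the higher library, the limit for being tested. Few markers of the labelled cell type had values: of 11 cardiomyocyte markers 2 did, summing to 27.1 FPKM in the antagomir library and 5.86 FPKM in the control library. Of 8 fibroblast markers 6 had values, summing to 341 FPKM in the antagomir library and 548 FPKM in the control library. Of 4 leukocyte, 3 smooth muscle and pericyte and 2 erythroid markers 1 each had a value, with a sum of at most 11.5 FPKM in either library, and none of 4 endothelial markers did. The part of such cell mixtures in the differences below was not tested, and in bulk RNA fewer cells of a type and less RNA per cell cannot be told apart.

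Of the 57 members, 9 were higher in the antagomir library, 10 were lower and 38 were less than 1.5-fold apart. Among all 10201 genes tested, 10.8% were higher and 13.4% lower by the same limit, so neither count of members stood far from that of genes in general. The median log2 ratio was -0.19 over the members and -0.05 over all genes tested. At 2-fold on the FPKM + 1 scale, 1 member was higher and 1 lower, beside 2.88% and 3.79% of all genes tested. Of the 9 higher members 5 encode subunits that several polymerases share, 3 belong to Mediator and 1 to polymerase III. Of the 10 lower members 3 encode the largest subunits of the polymerases and 7 belong to Mediator.

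**Figure D1:**
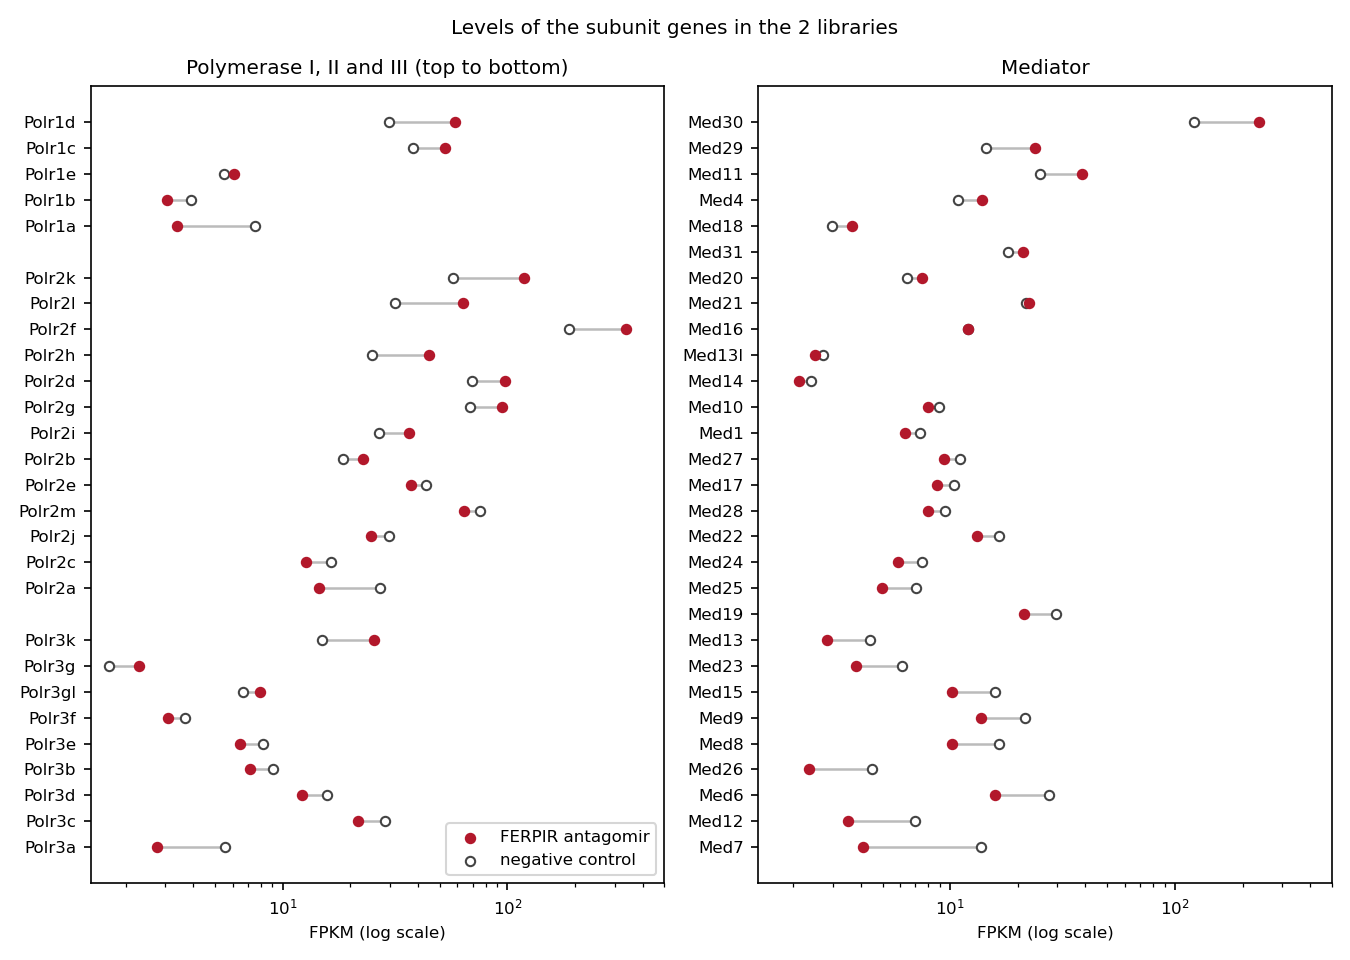
Level of the subunit genes, all but 1 of the 57, in FPKM on a log scale, as filled red points for the FERPIR antagomir library and open points for the negative control library (1 library each), polymerase I, II and III on the left and Mediator on the right. Within each group genes run from the highest to the lowest log2 ratio, and Polr2f, with 337 FPKM in the antagomir library and 188 FPKM in the control library, is the most abundant.

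The largest subunit of every polymerase was lower in the antagomir library. Among the 1292 tested genes with the longest proteins, a size band that holds all 3 of these subunits, 18.2% were lower and 2.32% higher. The median log2 ratio of that band was -0.22. Polr1a, which carries the active site of polymerase I with Polr1b, had 3.39 FPKM in the antagomir library and 7.51 FPKM in the control library, 1.94-fold lower (chromosome 6, 71909053 to 71984935 on genome build GRCm38). Polr2a, whose long tail of repeated residues is phosphorylated during transcription, had 14.5 FPKM in the antagomir library and 27.1 FPKM in the control library, 1.82-fold lower (chromosome 11, 69733997 to 69758637). Polr3a, the largest subunit of polymerase III, had 2.75 FPKM in the antagomir library and 5.55 FPKM in the control library, 1.75-fold lower (chromosome 14, 24448696 to 24487058). These 3 log2 ratios, -0.95, -0.86 and -0.80, were the lowest of their polymerases.

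The genes of the second-largest subunits, which close the other side of the active site, did not share that difference. Polr1b had 3.05 FPKM in the antagomir library and 3.93 FPKM in the control library, a log2 ratio of -0.28. Polr3b had 7.14 FPKM in the antagomir library and 9.05 FPKM in the control library, a log2 ratio of -0.30. Polr2b had 22.7 FPKM in the antagomir library and 18.5 FPKM in the control library, a log2 ratio of 0.28. All 3 were less than 1.5-fold apart, and Polr2b overlaps exons of Igfbp7 on the opposite strand, a gene with 102 FPKM in the antagomir library and 110.5 FPKM in the control library.

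Of the 7 subunits that more than 1 polymerase uses, 5 were higher in the antagomir library and none was lower, with a median log2 ratio of 0.84. That stood beside 10.8% higher and 13.4% lower among all genes tested. Among tested genes with proteins of at most 150 residues, the size of 5 of these 7, 36.8% were higher and 5.71% lower. Polr2k, a very small zinc-binding subunit of all 3 polymerases, had 118 FPKM in the antagomir library and 57.3 FPKM in the control library, 2.04-fold higher (chromosome 15, 36174010 to 36177010). On the FPKM + 1 scale Polr2k was the single member past 2-fold in that direction. Polr2l, the other small zinc-binding subunit common to all 3, had 63.4 FPKM in the antagomir library and 31.6 FPKM in the control library, 1.98-fold higher (chromosome 7, 141471860 to 141475132). Polr2f had 337 FPKM in the antagomir library and 188 FPKM in the control library, 1.78-fold higher (chromosome 15, 79141351 to 79151774). Polr2f was the most abundant member in both libraries, and its exons overlap those of 1700088E04Rik, a gene with 1.68 FPKM in the antagomir library and 1.76 FPKM in the control library. Polr2h had 44.6 FPKM in the antagomir library and 24.9 FPKM in the control library, 1.76-fold higher. The remaining subunit common to all 3, Polr2e, had 37.1 FPKM in the antagomir library and 43.4 FPKM in the control library, a log2 ratio of -0.22. Polr1d and Polr1c form a pair shared by polymerases I and III. Polr1d had 58.4 FPKM in the antagomir library and 29.7 FPKM in the control library, 1.93-fold higher, and Polr1c had 53.0 FPKM in the antagomir library and 38.2 FPKM in the control library, a log2 ratio of 0.46. With the trend of all genes over longest transcript length and GC content removed, 3 of these 7 were still past 1.5-fold. When the length was that of the principal transcript 2 were, Polr1d and Polr2l. By these removals 799 and 782 of all 10201 genes tested were higher. Polr2e was then at -0.31 and -0.55. Polr2k, Polr2h and Polr2l are uncertain in addition, since stretches of their transcripts have copies of at least 95% identity at other loci, with which reads could be shared. Such copies were also found for Polr2c, Polr3a and Med4. Without these 6 members, 2 of the 4 remaining shared subunits were higher.

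To show the starts of genes at both ends, promoter windows from RefSeq (GRCm38.p6) are printed for 2 shared subunits that were higher and for 2 largest subunits that were lower. Each runs from 250 bases before to 50 bases after the annotated start. Capitals mark matches on either strand to any of 6 motifs. ETS-type factors were searched as CCGGAAG and the factor NRF1 as GCGCANGCG. For YY1 the letters were AAGATGGC. The GC box, which SP factors bind, was read as GGGCGG on either strand. Also marked are the CCAAT box, by the letters of its name, and the TATA box, as TATAAA.
Polr2l, chr7:141475104-141475403, minus strand: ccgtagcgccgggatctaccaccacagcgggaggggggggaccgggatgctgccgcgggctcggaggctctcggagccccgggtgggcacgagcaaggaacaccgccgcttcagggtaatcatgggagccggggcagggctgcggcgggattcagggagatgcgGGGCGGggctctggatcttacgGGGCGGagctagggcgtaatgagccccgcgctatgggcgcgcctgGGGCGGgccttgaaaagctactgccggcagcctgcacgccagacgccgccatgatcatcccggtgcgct
Polr2f, chr15:79141075-79141374, plus strand: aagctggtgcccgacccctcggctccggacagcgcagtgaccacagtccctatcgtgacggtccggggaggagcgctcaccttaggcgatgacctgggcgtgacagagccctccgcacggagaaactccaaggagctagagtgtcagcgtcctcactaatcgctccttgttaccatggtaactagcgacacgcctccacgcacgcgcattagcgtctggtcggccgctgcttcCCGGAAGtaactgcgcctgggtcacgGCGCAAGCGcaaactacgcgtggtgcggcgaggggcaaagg
Polr1a, chr6:71908803-71909102, plus strand: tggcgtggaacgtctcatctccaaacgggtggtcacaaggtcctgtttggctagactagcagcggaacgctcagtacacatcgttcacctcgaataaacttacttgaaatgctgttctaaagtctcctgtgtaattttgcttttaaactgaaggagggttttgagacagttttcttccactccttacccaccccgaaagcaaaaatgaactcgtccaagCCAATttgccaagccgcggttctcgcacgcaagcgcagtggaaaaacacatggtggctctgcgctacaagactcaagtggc
Polr2a, chr11:69758584-69758883, minus strand: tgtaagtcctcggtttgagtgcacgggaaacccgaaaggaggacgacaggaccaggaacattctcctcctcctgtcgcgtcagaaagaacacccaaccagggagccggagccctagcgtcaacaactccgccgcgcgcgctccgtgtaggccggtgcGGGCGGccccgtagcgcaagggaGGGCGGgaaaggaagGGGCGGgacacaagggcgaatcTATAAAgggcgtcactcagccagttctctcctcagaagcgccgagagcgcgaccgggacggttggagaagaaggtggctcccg
The Polr2l window held 3 GC boxes, and the Polr2f window held 1 ETS-type and 1 NRF1-type match. In the Polr1a window there was 1 CCAAT box, and in that of Polr2a 3 GC boxes and 1 TATA box. Over the 47 members with a window in the table, 31.9% held the ETS-type motif, against 8.86% of all 32851 windows. The NRF1-type motif was in 23.4% of member windows and 6.25% of all windows, and the GC box in 63.8% and 35.7%. By size, the ETS-type motif was in 7 of 23 windows of small and 8 of 24 windows of large subunits, and the GC box in 15 and 15. For the CCAAT box these counts were 10 and 6, for the NRF1-type motif 6 and 5, for the TATA box 1 and 3, and for the YY1-type motif 1 and 0. Each member had 1 window, the one nearest to the start of its principal transcript. The full set counts every window, with no such choice, and includes those of genes without a value here. The shares are thus not from like sets, and what part this plays in their difference was not tested. No matches overlapped in the 4 printed windows. A match is a match of letters and does not show that a factor binds.

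The other polymerase II genes lay between these ends. Polr2d and Polr2g form the stalk from which the new transcript emerges. Polr2d had 97.2 FPKM in the antagomir library and 69.5 FPKM in the control library, and Polr2g had 94.6 FPKM in the antagomir library and 68.0 FPKM in the control library, log2 ratios of 0.48 and 0.47. Polr2i, a zinc-ribbon subunit that acts in start site choice and fidelity, had 36.4 FPKM in the antagomir library and 26.9 FPKM in the control library, a log2 ratio of 0.43, or -0.03 with the length and GC trend removed. Exons of Polr2i overlap those of Tbcb on the opposite strand, a gene with 37.9 FPKM in the antagomir library and 47.8 FPKM in the control library. The assembly pair Polr2c and Polr2j stood on the other side of 0. Polr2c had 12.7 FPKM in the antagomir library and 16.4 FPKM in the control library, a log2 ratio of -0.35, and Polr2j had 24.9 FPKM in the antagomir library and 29.8 FPKM in the control library, a log2 ratio of -0.25. Removal of the trend took Polr2j past the limit, at -0.67 for the longest and -0.76 for the principal transcript, and the exons of Polr2j overlap those of the protein-coding gene Lrwd1. Polr2m, an associated protein that restrains the enzyme, had 63.9 FPKM in the antagomir library and 75.5 FPKM in the control library. None of these 6 genes was 1.5-fold apart as deposited.

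Levels of the 12 core polymerase II subunits, per transcript length, spanned 26.6-fold in the antagomir library and 11.5-fold in the control library, from Polr2c to Polr2f in both, as quotients of FPKM with no 1 added. Their SD across genes on the log2(FPKM + 1) scale was 1.34 in the antagomir library and 0.97 in the control library. For the 5 polymerase I genes this SD was 1.94 in the antagomir library and 1.36 in the control library, for the 10 polymerase III genes 1.14 and 1.04, and for the 29 Mediator genes 1.30 and 1.08. Over all genes tested it was 1.78 in the antagomir library and 1.74 in the control library.

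Polymerase III had 1 gene higher, 1 lower and 8 less than 1.5-fold apart, with a median log2 ratio of -0.24. As a share of the genes, 10% were higher and 10% lower, near the 10.8% and 13.4% of all genes tested. Polr3k, a small subunit needed for termination and for trimming of the transcript, had 25.5 FPKM in the antagomir library and 14.9 FPKM in the control library, 1.67-fold higher (chromosome 2, 181864337 to 181870830). Polr3c and Polr3f, of the subcomplex that opens the promoter, had log2 ratios of -0.38 and -0.19. Polr3d and Polr3e, a pair that resembles an initiation factor of polymerase II, had log2 ratios of -0.35 and -0.30. The paralogs Polr3g, known from stem and dividing cells, and Polr3gl, the form of most differentiated tissues, occupy the same place in the enzyme. Polr3g had 2.29 FPKM in the antagomir library and 1.68 FPKM in the control library, and Polr3gl had 7.91 FPKM in the antagomir library and 6.68 FPKM in the control library. Polr3gl was the more abundant in both libraries, and their log2 ratios, 0.30 and 0.21, were both under the limit. Among polymerase I genes not yet given, Polr1e, which binds as a pair with another subunit, had 6.09 FPKM in the antagomir library and 5.49 FPKM in the control library.

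In Mediator 3 genes were higher, 7 lower and 19 less than 1.5-fold apart, with a median log2 ratio of -0.22. Of 29 log2 ratios 20 were below 0, as were 5506 of the 10201 over all genes tested. As a share of the Mediator genes, 10.3% were higher and 24.1% lower, beside 10.8% and 13.4% of all genes tested. The gene farthest from 0 was Med7, which pairs with Med21 as a hinge of the middle part. It had 4.10 FPKM in the antagomir library and 13.7 FPKM in the control library, 2.89-fold lower (chromosome 11, 46436925 to 46442721). On the FPKM + 1 scale Med7 was the single member past 2-fold in that direction. The exons of Med7 overlap those of a noncoding RNA, 2310031A07Rik, on the opposite strand. Its partner Med21 had 22.4 FPKM in the antagomir library and 21.6 FPKM in the control library. Its log2 ratio of 0.05 was below 0 as TPM and after the rescaling without abundant families. With the length and GC trend removed it was -0.10 for the longest and -0.47 for the principal transcript. Med31, which binds Med7, had 21.1 FPKM in the antagomir library and 18.0 FPKM in the control library, a log2 ratio of 0.22. With those trends removed Med31 was at -0.07 and -0.03.

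Elsewhere in the middle part, Med26, which brings elongation factors to the polymerase, had 2.36 FPKM in the antagomir library and 4.50 FPKM in the control library, 1.64-fold lower. Med9 had 13.7 FPKM in the antagomir library and 21.6 FPKM in the control library, 1.54-fold lower. Med1, the main contact of nuclear receptors, had 6.29 FPKM in the antagomir library and 7.32 FPKM in the control library, a log2 ratio of -0.19. Med19, Med10 and Med4 had log2 ratios of -0.46, -0.15 and 0.34. With the trend over principal transcript length and GC content removed, Med10 was at -0.48. The scaffold gene Med14 had 2.13 FPKM in the antagomir library and 2.39 FPKM in the control library, a log2 ratio of -0.12, or 0.04 with the trend removed.

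Among 7 head genes 2 were lower and 1 higher, beside 13.4% lower and 10.8% higher among all genes tested. Med6 had 15.7 FPKM in the antagomir library and 27.4 FPKM in the control library, 1.70-fold lower (chromosome 12, 81573557 to 81595008), and Med8 had 10.1 FPKM in the antagomir library and 16.4 FPKM in the control library, 1.56-fold lower. Med11 had 38.7 FPKM in the antagomir library and 25.2 FPKM in the control library, 1.51-fold higher. Med17, the central scaffold of the head, had 8.77 FPKM in the antagomir library and 10.4 FPKM in the control library, a log2 ratio of -0.22. Med22 had a log2 ratio of -0.30, or, past the limit, -0.67 with the trend over principal transcript length and GC content removed. The pair Med18 and Med20, which form a movable jaw, had log2 ratios of 0.22 and 0.20.

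All 5 tail genes, which bind activators, had log2 ratios from -0.60 to 0.00. Med15, a contact of sterol-regulating factors, had 10.1 FPKM in the antagomir library and 15.9 FPKM in the control library, 1.51-fold lower. Med23 had 3.80 FPKM in the antagomir library and 6.09 FPKM in the control library, a log2 ratio of -0.56, just under the limit and past it with smaller pseudocounts and as TPM. Med25 and Med24 had log2 ratios of -0.43 and -0.30, and Med16 had 12.0 FPKM in both libraries. At the boundary of head and tail, where structures differ in the assignment, Med30 had 236 FPKM in the antagomir library and 121 FPKM in the control library, 1.94-fold higher (chromosome 15, 52712408 to 52730564). Med30 was the most abundant Mediator gene in both libraries, with an FPKM 111 times that of Med14, the lowest, in the antagomir library and 50.7 times in the control library, with no 1 added. Med29 had 23.8 FPKM in the antagomir library and 14.5 FPKM in the control library, 1.60-fold higher. Med27 and Med28 had log2 ratios of -0.21 and -0.22.

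The kinase part did not move one way. Its 3 members with values had log2 ratios below 0, of which Med13l was above 0 with the length and GC trend removed, while of its subunits under other symbols Cdk8, the kinase, was at -0.40 and its relative Cdk19 and their cyclin Ccnc were at 0.33 and 0.37. Of these 6 genes, Med12 alone was 1.5-fold apart. Med12, which activates the kinase, had 3.51 FPKM in the antagomir library and 6.94 FPKM in the control library, 1.76-fold lower (chromosome X, 101274030 to 101297465). Med13, which ties the kinase to the rest of Mediator, had 2.83 FPKM in the antagomir library and 4.42 FPKM in the control library, a log2 ratio of -0.50, which passed the limit with smaller pseudocounts and, at -0.67, as TPM. Its paralog Med13l had 2.50 FPKM in the antagomir library and 2.73 FPKM in the control library, a log2 ratio of -0.09. Med12l, the paralog of Med12, was not analysed here.

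**Figure D2:**
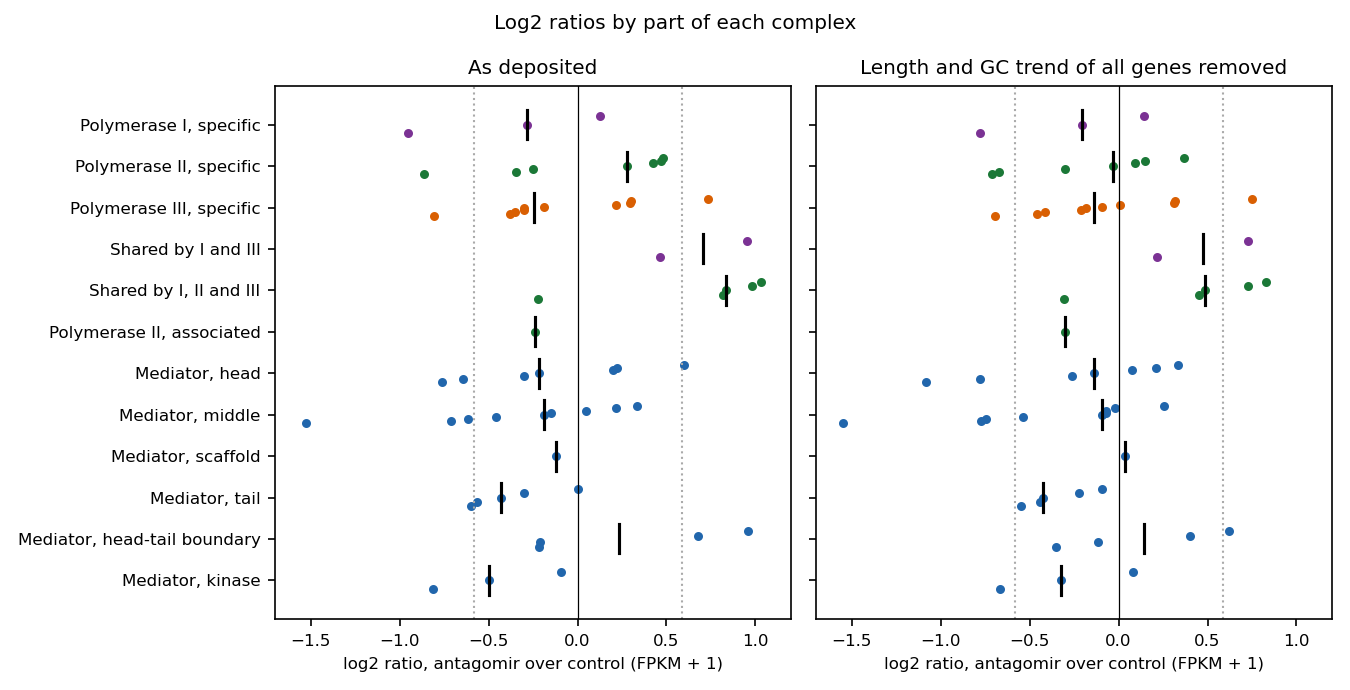
Log2 ratio of each member, antagomir over control on the FPKM + 1 scale, by part of its complex, as deposited (left) and with the trend of all genes over transcript length and GC content removed (right). Points are genes, black bars are medians and dotted lines mark 1.5-fold; the median of subunits shared by I, II and III is 0.84 on the left and 0.49 on the right.

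Small and large subunits were set apart at 250 residues of the annotated protein, which gave 28 small and 29 large members. Small members had a median log2 ratio of 0.26, with 9 higher and 3 lower. For large members the median was -0.30, with 0 higher and 7 lower. The difference of the medians was 0.56. All 10201 genes tested showed the same order: those with proteins of at most 250 residues had a median of 0.22, with 24.9% higher and 8.29% lower, and those with longer proteins a median of -0.11, with 6.71% higher and 14.9% lower. Among small members 32.1% were higher and 10.7% lower, and among large members 24.1% were lower. The share of small members that were higher, 32.1%, thus stood beside 24.9% of small proteins in general. For large members 24.1% lower stood beside 14.9%, and 0 higher beside 6.71%.

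Spearman's rho between log2 ratio and protein length was -0.69 over 13 polymerase II genes, -0.89 over 10 polymerase III genes and -0.37 over 29 Mediator genes, and -0.29 over 10176 genes tested, as a description across genes that share both libraries. In polymerase III all 4 small genes were above 0 and all 6 large ones below it. Over all genes tested, 1463 of 2257 with proteins of at most 250 residues were above 0. Of those with longer proteins, 4707 of 7919 were below 0. Small polymerase II genes had a median of 0.48 over 9 genes and large ones -0.29 over 4. Small Mediator genes had a median of -0.05 over 14 genes and large ones -0.30 over 15. Mediator held small subunits at both ends, Med30 and Med29 above 0 and Med7, Med6 and Med9 below.

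**Figure D3:**
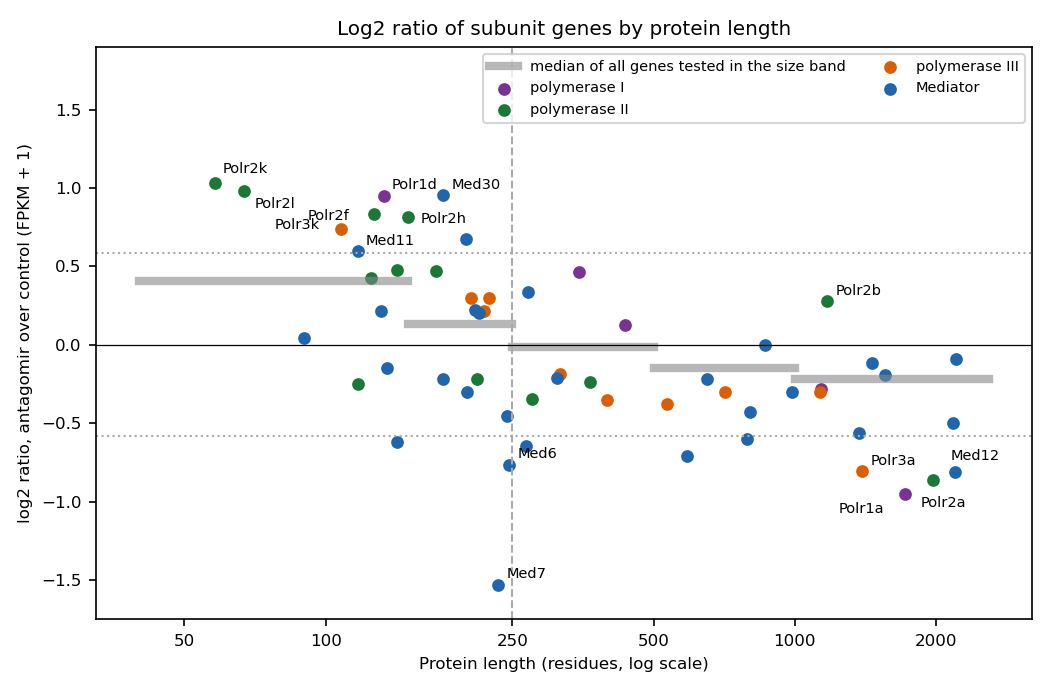
Log2 ratio of each member, antagomir over control on the FPKM + 1 scale, against protein length in residues on a log scale, coloured by complex. Grey bars are medians of all genes tested in 5 size bands, from 0.41 for the shortest to -0.22 for the longest proteins, dotted lines mark 1.5-fold and the dashed line marks 250 residues; Polr1a, Polr2a and Polr3a lie below the bar of their band and Polr2k, Polr2l and Polr1d above.

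The log2 ratio of all genes also followed the length of the principal transcript, with a Spearman's rho of -0.31. Over the 57 members rho was -0.62 with protein length and -0.51 with that transcript length. For polymerase II genes these were -0.69 and -0.46, for polymerase III genes -0.89 and -0.21, and for Mediator genes -0.37 and -0.34. Of 10 equal groups of genes by the length of the principal transcript, the shortest had a median of 0.40 and the longest one of -0.21. Polr2k, with a transcript of 489 nucleotides, belongs to the shortest group, and its log2 ratio of 1.03 stood beside that median of 0.40. Polr2l has 67 residues but a transcript of 1650 nucleotides, and its log2 ratio of 0.98 stood beside a median of 0.03 in its length group. Polr3k has 108 residues and a transcript of 2948 nucleotides, and its 0.74 stood beside a median of -0.08. Polr1a and Polr2a, at -0.95 and -0.86, lay in the longest group, with its median of -0.21, and Polr3a, at -0.80, in a length group with a median of -0.14. With the trend over the length and GC content of the longest transcript removed, the difference between small and large members was 0.38. All 3 largest subunits were still at least 1.5-fold lower, at -0.78, -0.71 and -0.69, and the number of higher members was 5. Of all 10201 genes tested, 799 were higher and 1341 lower after that removal. Their medians were then 0.06 for proteins of at most 250 residues and -0.07 for longer ones. The removal took Polr2k to 0.49, Polr2h to 0.45, Med29 to 0.40, Med11 to 0.21 and Med15 to -0.55, all under the limit, and left Polr2l at 0.83, Polr3k at 0.75, Polr1d at 0.73, Polr2f at 0.73 and Med30 at 0.62. With the length and GC content of the principal transcript instead, Polr2f also fell under the limit, at 0.35, so that 4 members were higher. By that removal 782 of all genes tested were higher. Med7 and Med6, at -1.53 and -0.76 as deposited, were at -1.55 and -1.08 with the trend over the longest transcript removed. With the principal transcript they were at -1.50 and -1.03.

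Exons of 25 members overlapped those of another gene, of 11 members those of a protein-coding gene, and assignment of reads by strand is not stated. Among members past 1.5-fold, Polr1a, Polr2f, Polr2h, Med7, Med12, Med15, Med26 and Med29 had such overlaps. Without these 25 members, 6 were higher and 5 lower, and the difference between small and large members was 0.71. Of all 10201 genes tested 3843 had overlapping exons, and among those without, 721 were higher and 880 lower.

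Medians of 7 lists of related genes ran from -0.14 to 0.33. The counts past 1.5-fold in these lists stand beside 10.8% higher and 13.4% lower among all genes tested. Subunits with other symbols, Cdk8, Cdk19 and Ccnc among them, had 1 of 7 higher and none lower. Znrd1, a small zinc-ribbon subunit of polymerase I, had 56.5 FPKM in the antagomir library and 35.5 FPKM in the control library, 1.57-fold higher, and Crcp, a small polymerase III subunit, had a log2 ratio of 0.39. Twistnb, of the polymerase I stalk, had 9.57 FPKM in the antagomir library and 13.9 FPKM in the control library, a log2 ratio of -0.50. Cd3eap, of polymerase I, had a log2 ratio of 0.01. Initiation factors of polymerase II had 1 of 31 higher, Gtf2h5, a very small subunit of TFIIH, with 43.3 FPKM in the antagomir library and 25.5 FPKM in the control library, and none lower. Taf11 had a log2 ratio of 0.52, Taf3 one of -0.46 and Taf4 one of -0.43.

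Elongation factors of polymerase II had 1 of 25 higher and 2 lower. Supt6, a histone chaperone that travels with the polymerase and overlaps exons of Sdf2, had 9.82 FPKM in the antagomir library and 20.2 FPKM in the control library, 1.96-fold lower. Aff1, a scaffold of the super elongation complex, had 5.87 FPKM in the antagomir library and 11.2 FPKM in the control library, 1.77-fold lower. Cdk9, the kinase that releases paused polymerase, had 19.2 FPKM in the antagomir library and 11.4 FPKM in the control library, 1.62-fold higher, and Hexim1, which inhibits that kinase, had a log2 ratio of 0.51. None of 14 Integrator genes, 7 polymerase I factors and 16 polymerase III factors was 1.5-fold apart. Their ends were Ints4 at -0.29 and Ints10 at 0.21, Rrn3 at -0.45 and Ubtf at 0.32, and Brf2 at -0.42 and Snapc5 at 0.33, among genes reaching 5 FPKM. Of 10 factors that assemble polymerases 1 was higher and 1 lower. Gpn2, a GTPase of polymerase assembly, had 17.0 FPKM in the antagomir library and 8.84 FPKM in the control library, 1.83-fold higher, and Uri1, a prefoldin-like protein, had 16.0 FPKM in the antagomir library and 29.3 FPKM in the control library, 1.78-fold lower.

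**Figure D4:**
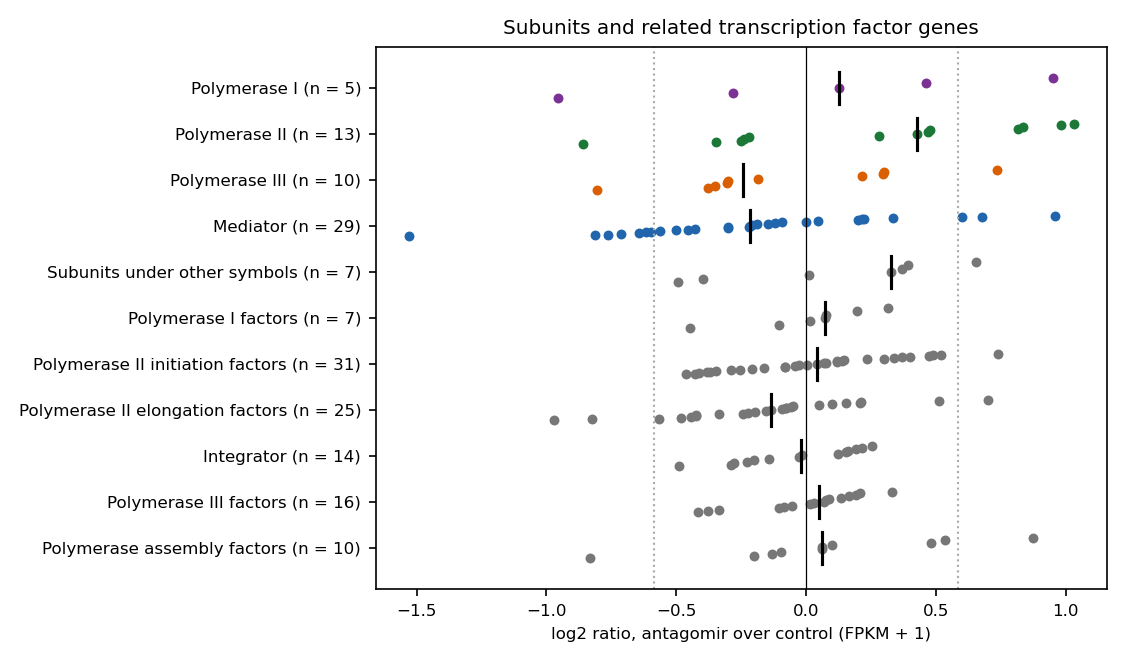
Log2 ratios, antagomir over control on the FPKM + 1 scale, of subunit genes (coloured) and of 7 lists of related genes (grey), with n genes each. Points are genes, black bars are medians and dotted lines mark 1.5-fold; medians run from -0.24 for polymerase III to 0.43 for polymerase II subunits.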

How the data were processed

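The authors deposited FPKM values per gene, 1 column per library. Per the submitters' processing notes these came from cutadapt, HISAT2 and StringTie version 1.3.3 on GRCm38; for annotation release, settings and strand use the sources used here give nothing. Per the labels' protocols, polyadenylated RNA went into a stranded library kit. The 10992 lines were joined to 10982 genes by summing 10 repeated symbols. Groups came from the sample titles. Low values held no steps of whole reads, so depth and counting error are unknown.

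Log2 ratios used a pseudocount of 1 FPKM, and genes at or above 1 FPKM in the higher library were tested.  The members and the related lists were chosen with earlier results of these data known. The rule named members at least 1.5-fold apart or at the ends of their group that reach 5 FPKM, the 2 largest subunits of each polymerase, paralog pairs, Med14 and Med1, and up to 2 genes at either end of each related list; other members were added after their values were seen. Transcript and protein lengths, GC content and exon overlaps came from GENCODE M21 on the same build, for 10977 and, for protein lengths, 10953 genes. The length and GC trend was a cubic fit across all genes tested. Copies at other loci were searched with BLAST 2.17.0 at 95% identity over 200 nucleotides. Calculations ran in Python 3.11.15, pandas 2.3.3, numpy 2.4.6 and matplotlib 3.10.9, and were tested on simulated data. Alternatives were other pseudocounts, minimums, scalings, size limits and gene models. The values of 1 subunit gene are not reported here, though it is counted in the totals and medians.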

Additional observations from a re-analysis of the deposited data

How the results depend on the processing

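There are no replicates, so a median was said to move when it shifted by 0.1 or more on the log2 scale, and a count when it differed by over 1.5 times. No median of a polymerase or of Mediator, grouped by symbol, changed sign under any alternative. The polymerase I and II groups include shared subunits, however. The 3 genes specific to polymerase I had a median of -0.28. The 7 specific to polymerase II had a median of 0.28. With the length and GC trend removed it was -0.03 for the longest and 0.01 for the principal transcript. With the trend over longest transcript length and GC content removed, the number of higher members was 5, the shared subunits among them 3, the medians 0.090 for polymerase II and -0.14 for polymerase III, and the difference of small and large members 0.38, or 0.28 with a limit of 500 residues, a combination chosen after seeing the data. With the length of the principal transcript, also chosen after seeing the data, these were 4, 2, 0.13, -0.12 and 0.39, and the Mediator median was -0.32. Of all 10201 genes tested, 799 were higher with the longest and 782 with the principal transcript. A minimum of 5 FPKM gave a polymerase I median of 0.29, and TPM a polymerase III median of -0.35. Leaving out members with overlapping exons gave 5 lower members, 3 shared subunits higher, a polymerase I median of 0.29 and a size difference of 0.71. Over all genes tested, leaving out the 3843 of 10201 with such overlaps gave 721 higher and 880 lower. Leaving out members with near-identical copies, chosen after seeing the data, gave 2 shared subunits higher and a polymerase II median of 0.28. At 2-fold on the FPKM + 1 scale 1 member was higher, 1 was lower, 1 shared subunit was higher and 0 of the largest subunits were lower. Polr1a passed 2-fold with pseudocounts of 0.1 and 0.01 and as TPM, at -1.12, -1.14 and -1.16. Polr3a did so with a pseudocount of 0.01 and as TPM, at -1.01 in both, and Polr2a did not. Of shared subunits, Polr2l passed it with both smaller pseudocounts, at 1.00, and Polr2k fell under it as TPM, at 0.96. A limit of 200 residues gave a size difference of 0.77. Centring took Med15 and Med9 under 1.5-fold, and TPM and the rescaling without abundant families took Med11 under it. Calls gained were Med13 and Med23 with pseudocounts of 0.1 and 0.01 and as TPM, at -0.62, -0.64 and -0.67 for Med13 and -0.67, -0.68 and -0.72 for Med23, which made 12 members lower. The rescaling gained Med23, at -0.63. Removal of the trend lost Med15 with either length and gained Polr2j with either and Med22 with the principal one. No paired analysis was possible because each group has 1 library. Depth sets a limit that cannot be stated, since the number of reads is unknown.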
